A study of Mus musculus with 2 samples.

Results

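Krt79-positive upper follicle keratinocytes (KCs) were picked from single-cell RNA sequencing of the epidermis of 2 newborn mice. Of the 19488 cells that held 900 to 7700 detected genes and under 10% mitochondrial UMIs, 1894 were Krt79-positive. A cell counted as Krt79-positive when it held at least 3 unique molecular identifiers (UMIs, 1 per captured transcript) of Krt79, no more than 1 UMI of Shh, under 0.5% of its UMIs from Lor and fewer than 10 UMIs of Scd1. Krt79 chose the cells, whereas the limits on Shh, Lor and Scd1 kept out hair placode cells, granular KCs and sebaceous gland cells. These 4 genes are therefore only described for these cells and not tested.

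Both mice were male Chrm3 KO mice of the C57BL/6J strain at postnatal day 0. Their deletion of the M3 muscarinic acetylcholine receptor is constitutive, and no wild-type library was analysed here, so no value below is an effect of genotype. The cells came from the epidermis of the back, after depletion of dead cells. Each mouse gave 1 library (KO mouse 1 and KO mouse 2), prepared with the Chromium 3′ chemistry, for which the labels and the study's methods name different versions.

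The hair follicle opens to the skin surface through a funnel, the infundibulum, and joins the sebaceous gland at the junctional zone below it. In mice, KCs that express Krt79 form columns in the centre of the growing hair bud, and the lumen of the hair canal opens within them. The transcription factor Gata6 and the stem cell marker Lrig1 mark the junctional zone and the sebaceous duct, Krt17 is a keratin of the follicle and its placode, and the companion layer keratin Krt75 lines the inside of the outer root sheath.

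The promoter of Krt79, the gene that defines the cells, is shown first. It is followed by those of Krt75, Gjb2 and Gjb6, whose summed levels were higher in these cells than in each comparison group. Krt75 was detected in a small minority of the cells, as given with its levels. The sequences are the 250 bases before the RefSeq start of each gene on GRCm38.p6, on the strand of the gene. Krt79 and Krt75 lie in the type II keratin cluster of chromosome 15, 355 kb apart, and the connexin genes Gjb2 and Gjb6 lie side by side on chromosome 14, 18.6 kb apart. Capitals mark the letters TGTGGT, which RUNX factors bind. The letters AGATAA, which fit GATA factors, and the box TATAAA were searched too, on both strands.
Krt79, chr15:101940325-101940574, minus strand: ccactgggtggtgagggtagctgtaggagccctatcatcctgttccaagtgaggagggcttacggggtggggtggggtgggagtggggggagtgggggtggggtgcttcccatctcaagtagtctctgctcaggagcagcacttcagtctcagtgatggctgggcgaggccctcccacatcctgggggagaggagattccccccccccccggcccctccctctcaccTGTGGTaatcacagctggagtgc
Krt75, chr15:101573905-101574154, minus strand: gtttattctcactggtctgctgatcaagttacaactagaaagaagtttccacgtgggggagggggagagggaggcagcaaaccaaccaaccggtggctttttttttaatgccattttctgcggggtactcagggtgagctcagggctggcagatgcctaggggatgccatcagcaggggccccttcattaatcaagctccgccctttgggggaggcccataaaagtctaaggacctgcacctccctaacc
Gjb2, chr14:57104703-57104952, minus strand: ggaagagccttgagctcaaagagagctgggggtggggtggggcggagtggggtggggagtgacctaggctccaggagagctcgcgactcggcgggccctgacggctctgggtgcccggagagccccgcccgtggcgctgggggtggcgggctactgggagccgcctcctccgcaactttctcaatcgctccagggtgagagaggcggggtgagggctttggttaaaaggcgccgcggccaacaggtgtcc
Gjb6, chr14:57133612-57133861, minus strand: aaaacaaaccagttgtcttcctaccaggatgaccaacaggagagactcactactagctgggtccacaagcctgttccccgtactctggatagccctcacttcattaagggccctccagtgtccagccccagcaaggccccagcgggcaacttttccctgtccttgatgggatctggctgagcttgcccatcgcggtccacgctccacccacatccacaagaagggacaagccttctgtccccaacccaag
Among these windows, TGTGGT occurred in that of Krt79 alone, starting 23 bases before the gene start, and a copy of AGATAA began 31 bases after the Krt79 start. Within 250 bases before and 50 after the start, TGTGGT occurs in 16.8% of the 32817 promoter windows of the table, AGATAA in 11.2% and TATAAA in 13.6%. The letters were searched because Runx1 and Gata6 are among the genes described below, and a match is a description of the sequence only.

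KO mouse 1 held 807 Krt79-positive cells among 7607 (10.6%, exact 95% binomial interval 9.93 to 11.3), and KO mouse 2 held 1087 among 11881 (9.15%, 8.64 to 9.68). They had a median of 11831 UMIs and 3279 genes per cell in KO mouse 1 and 11745 UMIs and 3258 genes in KO mouse 2. Over all kept cells the medians were 10480 and 10577 UMIs. A limit of 3 UMIs is reached more easily by a cell with more UMIs, and with every cell thinned to 5000 UMIs the shares were 8.70% and 6.82%. The 2 libraries shared 127 barcodes. After the cell filter 34 were still shared, 5 of them Krt79-positive in 1 library and 0 in both. The intervals cover counting error only.

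Chrm3 itself was not detected in the Krt79-positive cells. The count was 0 UMIs of 13080480 in KO mouse 1, which allows up to 0.229 CPM, the UMI count of a gene scaled to the summed UMIs of the cell group, and 0 UMIs of 17500277 in KO mouse 2, which allows up to 0.171 CPM. In the comparison groups described below, Chrm3 had 4 and 5 UMIs in Lhx2-positive follicle progenitors (0.132 and 0.102 CPM), 3 and 7 in basal KCs (0.233 and 0.301 CPM), 2 and 1 in spinous KCs and 0 in sebaceous gland cells. The part of the gene from which such a UMI came cannot be told from the counts. Of the other muscarinic receptors, Chrm1 stood at 0.688 and 0.629 CPM in the Krt79-positive cells, from 9 and 11 UMIs. Chrm2, Chrm4 and Chrm5 had 0 UMIs there, with the same floors as Chrm3, whereas Chrm2 stood at 2.86 and 2.40 CPM in sebaceous gland cells, from 6 UMIs in each mouse.

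Most kept cells had few or no Krt79 UMIs. In KO mouse 1, 4686 of the kept cells had no Krt79 UMI, 1634 had 1, 373 had 2 and 135 had 3. In KO mouse 2 the numbers were 6582, 3127, 946 and 281. Above the limit the counts spread widely, with a median of 27 and a highest value of 1610 UMIs in KO mouse 1, and a median of 9 and a highest value of 1128 in KO mouse 2. At least 12 UMIs were held by 57.7% of the Krt79-positive cells of KO mouse 1 (54.3 to 61.2) and by 45.4% of those of KO mouse 2 (42.4 to 48.4). The rest, with 3 to 11 UMIs, lay close to the counts that other cells reach.

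Transcripts set free by broken cells also reach droplets of other cell types. Melanocytes, defined by at least 5 UMIs of each of the pigment genes Pmel and Dct, served as cells that should lack Krt79. A Krt79 UMI was found in 25.1% of the 387 melanocytes of KO mouse 1 and in 37.7% of the 640 of KO mouse 2, at median depths of 9747 and 10538.5 UMIs. At least 3 UMIs were found in 2.07% (0.897 to 4.03) and 2.97% (1.80 to 4.6) of them, and at least 12 in 1.29% (0.421 to 2.99) and 1.09% (0.441 to 2.24). The shares of all kept cells that were Krt79-positive lay above these intervals at 3 UMIs, and at 12 UMIs they were 6.13% and 4.15%. Of the Krt79-positive cells, 8 in KO mouse 1 and 15 in KO mouse 2 also met the melanocyte definition. Their part in the results was not tested. Each comparison was repeated with the cells of at least 12 UMIs.

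**Figure D1:**
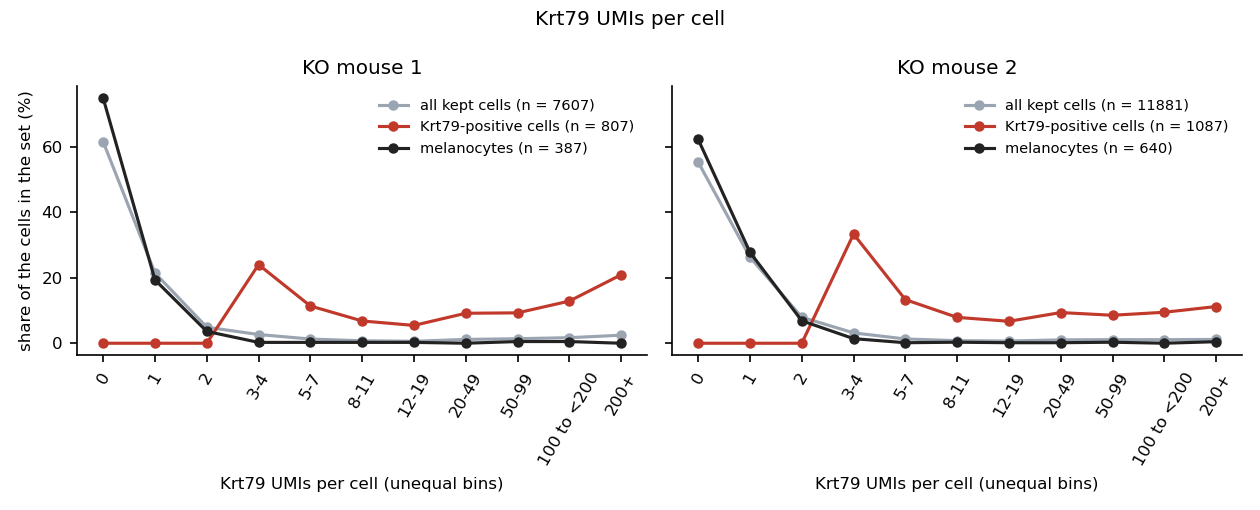
Share of cells (y axis, %) by the number of Krt79 UMIs per cell (x axis, unequal bins) in each KO mouse, for all kept cells, the Krt79-positive cells and the melanocytes. Almost all melanocytes sit at 0 to 2 UMIs, whereas 57.7% and 45.4% of the Krt79-positive cells hold 12 or more.

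Within the Krt79-positive cells, the genes of the upper follicle list did not all follow the Krt79 count in the same way. These levels are CPM of the UMIs summed per mouse, and since the count of Krt79 sorted the cells they carry no test. Krt17 stood at 1987 and 1977 CPM in cells with 3 to 11 Krt79 UMIs, at 3159 and 2310 CPM in those with 12 to 49 and at 8999 and 5957 CPM in those with 50 or more. Krt75 stood at 1.97 and 8.46 CPM in the lowest range and 177 and 101 CPM in the highest. The same order held for the skin-shedding protease gene Klk7, from 24.6 and 50 CPM to 556 and 409 CPM, and for the cystatin gene Cst6, from 48 and 49.2 CPM to 657 and 274 CPM. The arachidonate lipoxygenase gene Alox12e went from 3.69 and 2.82 CPM to 91.3 and 90.8 CPM.

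Of the same list, Fst, whose product follistatin binds activins, ran the other way, from 665 and 439.8 CPM to 136 and 129.9 CPM. Lrig1 ran that way too, from 102 and 70.5 CPM to 67 and 54.7 CPM. The stem cell receptor gene Lgr6 did too, from 88.1 and 70.1 CPM to 28.3 and 26 CPM. The proliferation gene Mki67 went from 189 and 188 CPM to 73.4 and 71.2 CPM. The lipid carrier gene Apoe and the sebaceous gene Mgst1 were highest in the middle range, at 8045 and 7860 CPM and 441 and 503 CPM, against 2147 and 2123 CPM and 173 and 238 CPM in the highest. Sox9, a transcription factor of follicle stem cells, was lowest in the middle range, at 161 and 113 CPM in the lowest, 124 and 102 CPM in the middle and 237 and 176 CPM in the highest. The mice differed at the top of the range in the inner root sheath keratin gene Krt71, at 12.7 and 114 CPM.

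At the limit itself, cells with exactly 3 Krt79 UMIs had Krt17 at 1927 and 1797 CPM, and cells just outside with 2 UMIs had it at 1618 and 1656 CPM. Gata6 stood at 24.8 and 4.16 CPM just inside and 12.1 and 3.71 CPM just outside. Pmel stood at 14.1 and 119 CPM just inside and 106 and 169.5 CPM just outside.

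**Figure D2:**
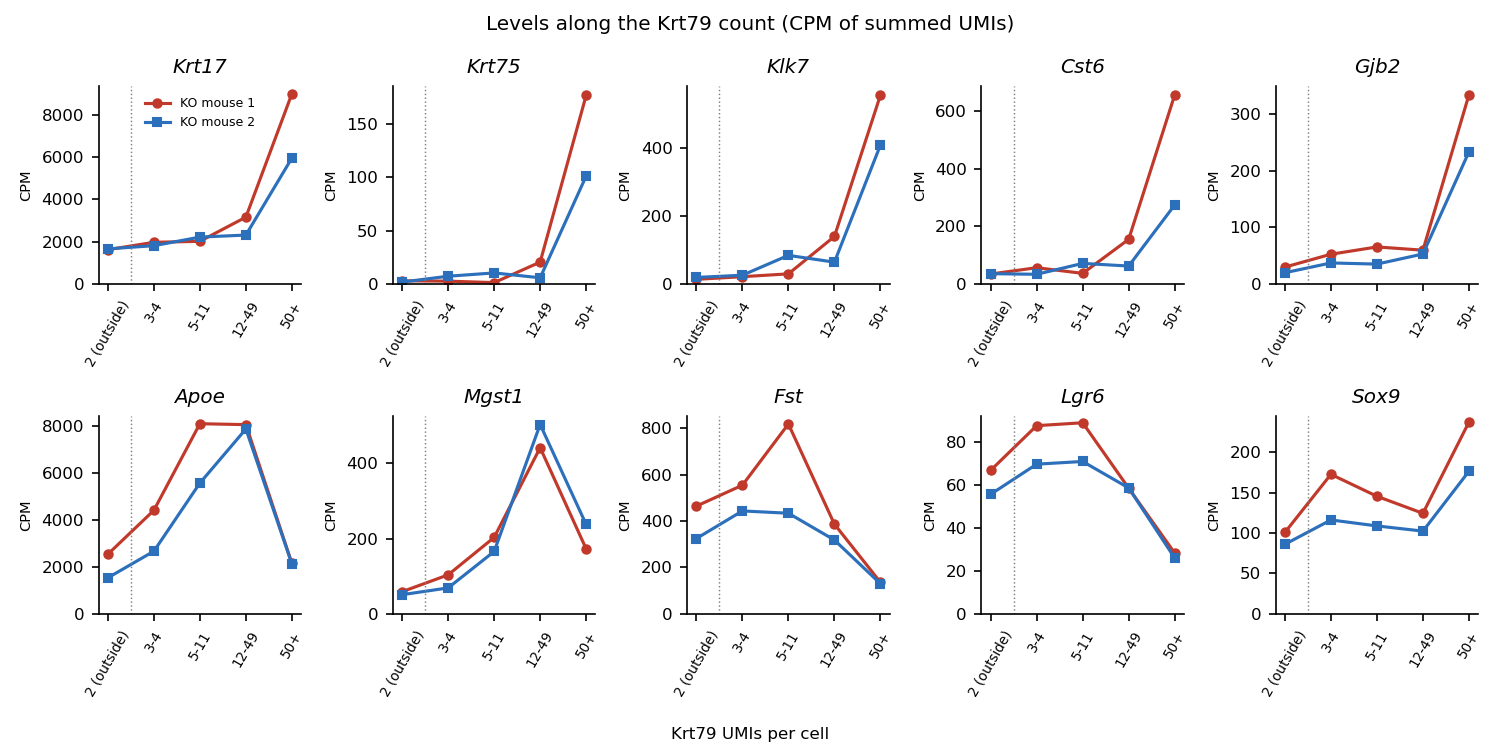
Levels of 10 genes (y axes, CPM of summed UMIs, linear and starting at 0) in cells grouped by their number of Krt79 UMIs (x axis), 1 line per KO mouse, with the lowest range of the text split into 3 to 4 and 5 to 11 UMIs and the dotted line marking the limit of 3. Krt17, Krt75, Klk7 and Cst6 are highest at 50 or more UMIs, Apoe and Mgst1 are higher at 12 to 49 than at 50 or more, and Fst and Lgr6 are lowest at 50 or more.

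For tests, UMIs were summed per mouse over the Krt79-positive cells and over 3 comparison groups. Lhx2-positive follicle progenitors (2338 and 3587 cells) hold at least 2 UMIs of Lhx2, a transcription factor of follicle stem cells, and take under 0.5% of their UMIs from Krt10. Krt79-positive cells were left out of them, although 235 and 364 of those cells (29.1% and 33.5%) also held at least 2 Lhx2 UMIs, and 30.9% and 33.7% of those with at least 12 Krt79 UMIs did. Spinous KCs (229 and 264 cells), also outside the Krt79-positive group, take at least 1% of their UMIs from Krt10, the keratin of the layers above the basal one. Sebaceous gland cells (71 and 91 cells) hold at least 10 UMIs of Scd1, a desaturase of sebum fat. Basal KCs (1184 and 2169 cells) entered the fit as a further level. Lhx2 and Krt10 chose cells too and are not tested where they did. From here on, levels are CPM with TMM scaling, given as KO mouse 1 and KO mouse 2, and a difference is a log2 fold change ± SE with n = 2 mice in each group. The spread behind a p-value comes from 2 animals only, taken over all cell groups of the fit and partly shared across genes. The groups compared came from the same mice, and the main fit did not pair them.

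Counts over a gene list leave out the genes that would not have passed the filter on low counts without the sums of 1 of the 2 groups compared. Of the 12 tested marker genes of the upper follicle, Defb6 was left out for this reason. Of the other 11, 6 were higher than in each of the 3 comparison groups. Against the progenitors 10 were higher and 0 lower, against spinous KCs 8 were higher and 2 lower (Ly6d and Aqp3), and against sebaceous gland cells 9 were higher and 1 lower (Cst6). Over all genes tested, 17.3% were higher and 23.9% lower than in the progenitors, 22.5% and 28.2% than in spinous KCs, and 21.5% and 22.6% than in sebaceous gland cells. Aqp3, a water and glycerol channel gene, stood at 57.8 and 42.8 CPM against 364 and 288 CPM in spinous KCs and 140.5 and 106 CPM in basal KCs. Krt17 stood at 5174 and 3270 CPM, above 1771 and 1742 CPM in the progenitors, 329 and 436 CPM in spinous KCs, 1240 and 709.7 CPM in sebaceous gland cells and 1126 and 1036 CPM in basal KCs. Both mice lay above both mice of each other group. Gata6 stood at 39.1 and 20.3 CPM, against 6.43 and 3.17 CPM in the progenitors and 12 and 14 CPM in sebaceous gland cells, and in spinous KCs 1 UMI and 0 UMIs were counted. It was 2.65 ± 0.34 higher than in the progenitors (adjusted p = 0.000127), while its difference of 1.17 ± 0.45 from sebaceous gland cells did not pass (adjusted p = 0.0533). With the mouse number as a block it passed (adjusted p = 0.00237). After thinning to 5000 UMIs, 19.2% and 9.04% of the Krt79-positive cells held a Gata6 UMI. In melanocytes the shares were 0.563% and 0.163%.

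Plet1, a surface marker of the upper follicle, stood at 75.7 and 54.4 CPM and was 0.93 ± 0.19 above the progenitors, while in basal KCs it stood at 67.2 and 51.5 CPM. Lrig1 stood at 68.1 and 54.3 CPM, and its difference from the progenitors was -0.02 ± 0.14 (adjusted p = 0.944), while it was 2.13 ± 0.20 above spinous KCs and 1.17 ± 0.20 above sebaceous gland cells. Fst stood at 287 and 255 CPM and at 278 and 263 CPM in basal KCs. It was 0.70 ± 0.16 above the progenitors, a call that ended among cells with at least 12 Krt79 UMIs, where the difference was -0.08 (adjusted p = 0.702). The defensin gene Defb6 had 25 and 31 UMIs in the Krt79-positive cells (1.64 and 1.56 CPM), and 1 and 5 UMIs in the progenitors. It had 0 UMIs in spinous KCs, which allows up to 0.611 and 0.590 CPM without TMM scaling, and 0 in sebaceous gland cells, which allows up to 1.43 and 1.20 CPM. Krt79 stood at 6591 and 3831 CPM in the Krt79-positive cells and at 5837 and 4205 CPM in the sebaceous gland cells, where all 71 and all 91 cells held at least 3 Krt79 UMIs. The gland cells are told apart here by Scd1 only.

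**Figure D3:**
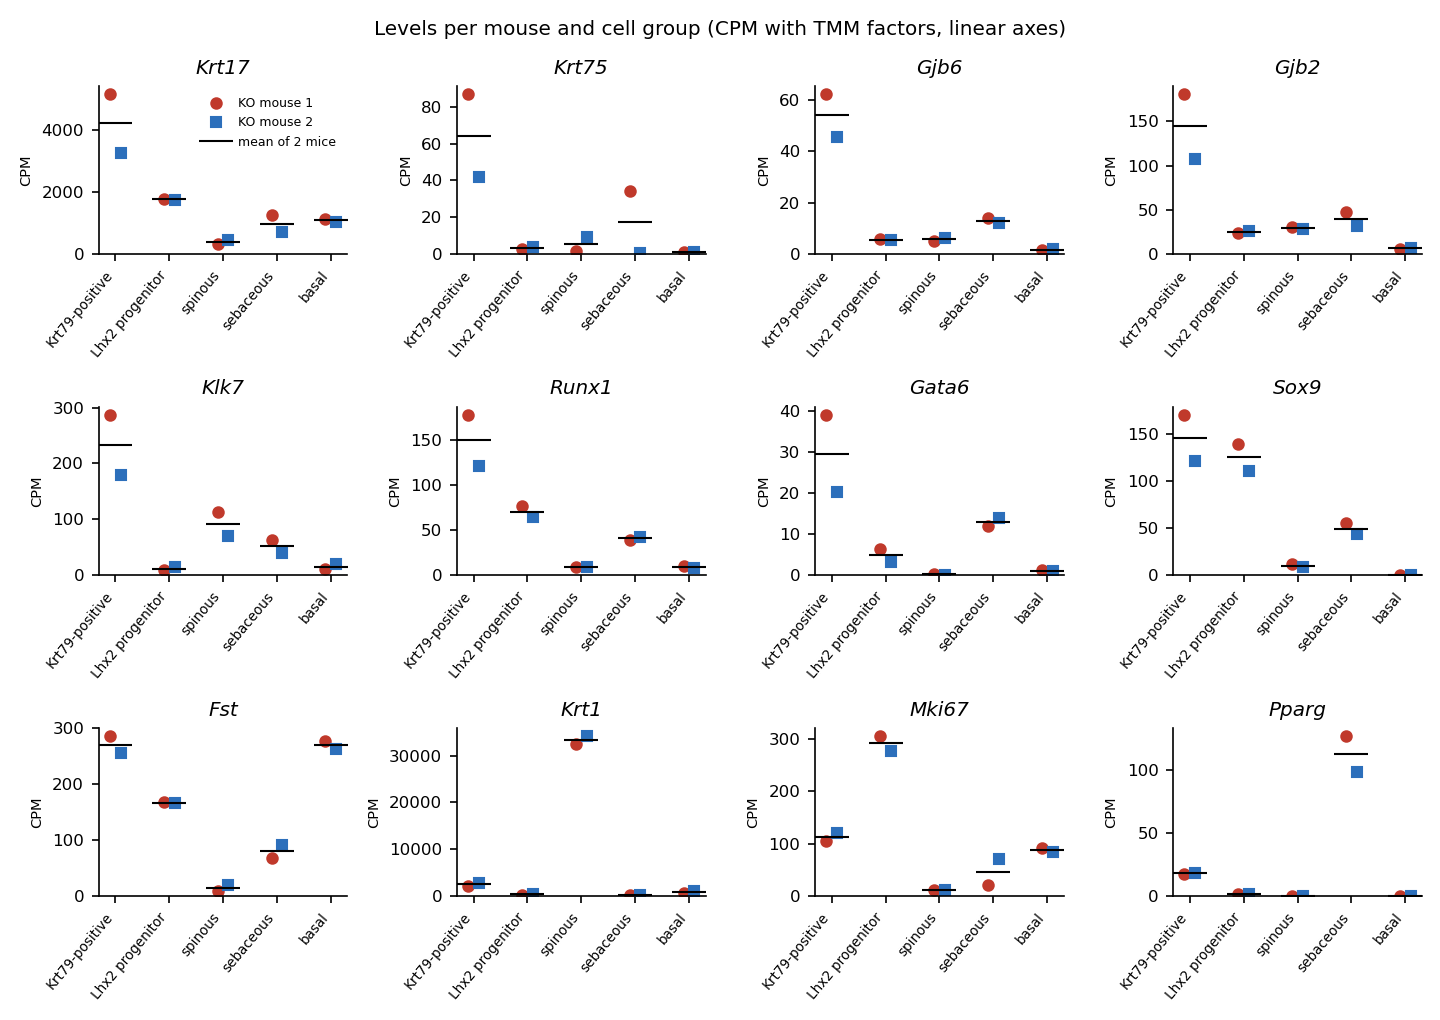
Levels (y axes, CPM with TMM scaling, linear and starting at 0) of 12 genes in 5 cell groups, 1 point per KO mouse with the mean as a bar. Krt17, Gjb6, Gjb2, Klk7 and Runx1 are highest in the Krt79-positive cells of both mice, Krt1 in spinous KCs, Mki67 in the progenitors and Pparg in sebaceous gland cells, and Sox9 is at 0 in basal KCs because cells with Sox9 were kept out of that group.

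Against the Lhx2-positive progenitors, which asks what sets the upper follicle apart from the follicle's growing part, the Krt79-positive cells were higher in differentiation, barrier and junction genes and lower in cell cycle and hedgehog genes. Of 13003 genes tested, 5352 passed an adjusted p of 0.05 (41.2%), with 2246 higher (17.3%) and 3106 lower (23.9%). The median log2 difference over all genes was -0.07. The largest differences of the upper follicle list were those of Alox12e at 5.73 ± 0.20 and the cornified envelope gene Sprr1a at 5.67 ± 0.60.

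Of the follicle progenitor genes, 5 of 12 were lower and 2 higher. Lgr5, a receptor of stem cells in the lower follicle, stood at 19.3 and 21.5 CPM against 78.6 and 70.2 CPM (-1.86 ± 0.13, adjusted p = 2.41e-06). Tbx1 stood at 18.4 and 19.8 CPM against 70.9 and 70.3 CPM. Sox9 did not pass, at 170.0 and 122 CPM against 139 and 111 CPM (0.22 ± 0.17, adjusted p = 0.328), and neither did Lgr6 (-0.27 ± 0.23) or Nfatc1 (0.24 ± 0.11). With the mouse number as a block, Sox9 (adjusted p = 0.0159) and Nfatc1 (adjusted p = 0.0286) passed as higher. Among cells with at least 12 Krt79 UMIs, Lgr6 was lower (-0.83, adjusted p = 0.0134). Krt15, a keratin of basal and stem cells, went the other way and was 1.79 ± 0.17 higher.

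Of the placode and hedgehog genes, 9 of 10 tested were lower and 0 higher. Ptch1, the receptor and target gene of hedgehog signalling, stood at 109.9 and 114 CPM against 256 and 248 CPM (-1.17 ± 0.14), and Gli1, its transcription factor and target, at 18.4 and 18.7 CPM against 34.8 and 34.1 CPM. The placode genes Edar and Lef1 differed by -1.38 ± 0.14 and -1.12 ± 0.21. Because both groups exclude cells with more than 1 Shh UMI, Shh itself was not tested.

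All 16 cell cycle genes were lower than in the progenitors, with a median difference of -1.29. Mki67 stood at 105 and 120.5 CPM against 307 and 278 CPM, and the replication gene Mcm6 at 65.1 and 82.4 CPM against 166 and 169.9 CPM. All 16 were higher than in spinous KCs, where Mki67 stood at 10.7 and 11.1 CPM. Basal KCs had Mki67 at 91.4 and 84.5 CPM. Among cells with at least 12 Krt79 UMIs, 16 of the 16 were lower than in the progenitors and 15 were higher than in spinous KCs. Of all 12508 genes tested with those cells, 2714 were higher and 3624 lower than in the progenitors. Against spinous KCs, 2721 were higher and 3530 lower.

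Genes of the epidermal barrier were higher than in the progenitors across lists. The progenitors were limited to under 0.5% Krt10 and the Krt79-positive cells were not, so the counts of spinous and granular genes depend in part on that limit. The counts of proteases, junction genes and differentiation factors below were made in the same way and may depend on it too. All 10 tested spinous genes were higher, among them the desmosomal genes Dsg1a (190.3 and 142 CPM against 16 and 19.4 CPM) and Dsc1 (51.2 and 43.5 CPM against 4.33 and 6.66 CPM), and 11 of 19 granular genes were higher and none lower. Krt1, the partner of Krt10, stood at 2143 and 2810 CPM against 189 and 434 CPM. With the same limit on the Krt79-positive cells, the difference of Krt1 was 0.96 (adjusted p = 0.0553) instead of 2.99 ± 0.41. In those cells Krt1 stood at 604 and 795 CPM without TMM scaling, and in melanocytes at 382 and 1235 CPM. The lists then had 7 of 10 spinous genes and 8 of 19 granular genes higher. Over all 12498 genes tested with that limit, 1959 were higher and 2739 lower.

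Of 22 tested proteases and inhibitors, 19 were higher and 1 lower than in the progenitors. They included the kallikreins Klk5, Klk7, Klk8, Klk10 and Klk11, serine proteases that cut the links between shed corneocytes. Klk7 stood at 287 and 179.8 CPM against 8.65 and 14 CPM (4.34 ± 0.36), and Klk5 at 30.8 and 25.4 CPM against 3.25 and 4.5 CPM. Their inhibitor gene Spink5 was 1.10 ± 0.26 higher, and 0.49 with Krt10-low cells only (adjusted p = 0.181). Cst6, which inhibits cathepsins, stood at 343 and 129 CPM against 11.6 and 16.3 CPM.

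Of 19 tight junction and desmosome genes (Cldn3 left out), 14 were higher and 2 lower. The claudin gene Cldn1 stood at 154 and 109 CPM against 32.8 and 28.4 CPM, and Cldn4 at 20.4 and 14.4 CPM against 1.46 and 1.34 CPM. Plakoglobin (Jup) stood at 404 and 340.4 CPM against 74.2 and 85.3 CPM, desmoplakin (Dsp) at 1012 and 889 CPM against 319.6 and 351 CPM, and E-cadherin (Cdh1) at 184 and 145 CPM against 83.3 and 78.4 CPM. P-cadherin (Cdh3), a cadherin of basal and hair matrix cells, was lower, at 52.5 and 57.7 CPM against 123 and 107 CPM (-1.06 ± 0.17, adjusted p = 0.000612).

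Of 17 differentiation transcription factors (Ehf left out), 13 were higher and 1 lower. Zfp750 stood at 70 and 63.8 CPM against 3.27 and 4.81 CPM (4.02 ± 0.20), Grhl1 at 102 and 76.3 CPM against 16.7 and 14.8 CPM, and Klf4 at 328 and 262 CPM against 92.5 and 92.4 CPM. Grhl3, a driver of barrier formation, was low, at 3.74 and 3.47 CPM against 0.146 and 0.293 CPM. Tfap2b was the gene that was lower (-0.61 ± 0.11).

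In signalling, 3 receptors of the Notch pathway were higher than in the progenitors and both Jagged ligands lower. Notch1 stood at 154 and 160.4 CPM against 36.8 and 50.7 CPM (1.84 ± 0.13), Notch2 at 25.1 and 20.4 CPM against 8.42 and 9.13 CPM and Notch3 at 12.1 and 11.8 CPM against 1.05 and 1.21 CPM. The target genes Hes1 (0.85 ± 0.15) and Heyl (3.83 ± 0.34) were higher. The ligand genes Jag1 (-0.59 ± 0.16) and Jag2 (-0.87 ± 0.11) and the glycosyltransferase gene Lfng (-1.21 ± 0.20) were lower. In all, 6 of 12 tested genes were higher and 3 lower.

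Of 18 BMP and TGF-beta genes, 5 were higher and 6 lower. Inhba, the subunit of activin A, stood at 11.1 and 7.29 CPM against 0.292 and 0.384 CPM (4.69 ± 0.35), and Sostdc1, a secreted antagonist of BMP and Wnt ligands, at 553 and 487 CPM against 279 and 234 CPM. Tgfb1 was lower, at 19.7 and 24.2 CPM against 54.4 and 56.2 CPM, and so was Bmp4, at 8.39 and 6.94 CPM against 14.6 and 15.5 CPM. Tgfb2 did not pass (-0.14 ± 0.11), but was lower among cells with at least 12 Krt79 UMIs (-0.51, adjusted p = 0.0028). Of 17 Wnt genes (Notum left out), 3 were higher and 8 lower. The secreted inhibitor genes Wif1, Sfrp1 and Dkk3 were lower, with Dkk3 at 13.4 and 14.9 CPM against 46.8 and 39.4 CPM, and Apcdd1, another Wnt inhibitor gene, was higher (1.80 ± 0.22). The feedback targets of the pathway did not move together. Axin2 was higher (1.06 ± 0.12), while Nkd1 was lower, at 2.88 and 3.02 CPM against 6.96 and 7.23 CPM, as was the Wnt effector gene Lef1, at 17.4 and 27.2 CPM against 43.8 and 53.6 CPM. Among the ligands of the EGF receptor, Tgfa stood at 29.3 and 22.3 CPM against 2.69 and 2.91 CPM (3.19 ± 0.20), and Egfr itself was lower (-0.70 ± 0.12). Of 10 genes of that pathway (Btc left out), 6 were higher and 1 lower.

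Of 20 tested sebaceous genes, 12 were higher than in the progenitors and 0 lower. Against sebaceous gland cells, which were chosen by Scd1, 16 of 17 were lower (Awat1, Mc5r and Scd3 left out). Among the 8 that did not pass against the progenitors, Elovl5, a fatty acid elongase gene, stood at 4.26 and 5.38 CPM against 8.07 and 7.98 CPM, and Acaca, a fatty acid synthesis gene, at 19.1 and 21.3 CPM against 18.7 and 21.2 CPM. Pparg, the master regulator of sebocytes, stood at 17.3 and 18.5 CPM against 1.17 and 1.17 CPM in the progenitors and 127 and 98.6 CPM in sebaceous gland cells. Cidea, a lipid droplet protein gene, stood at 34.4 and 44.1 CPM against 1.14 and 1.21 CPM and 2665 and 1903 CPM. Of 8 retinoid and lipid carrier genes (Cyp26b1 and Fabp4 left out), 7 were higher than in the progenitors and none lower, with Apoe at 3535 and 3284 CPM against 957 and 875 CPM. Of the 3 ranges of Krt79 UMIs given in the text, that of 12 to 49 held the highest Cidea, at 109 and 125 CPM, and the highest Pparg, at 45.4 and 48.3 CPM. Of 4 companion layer and stress keratins 3 were higher than in the progenitors (Krt16, Krt75 and Krt6a) and 0 lower. A further list held acetylcholine receptor genes, Ly6 family genes and the acetylcholine enzyme genes Chat and Ache. Of its 5 tested genes (Chrm1 left out), 2 were higher, the Ly6 family genes Ly6d and Lypd3, and 0 lower. Neither of the 2 encodes an acetylcholine receptor.

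**Figure D4:**
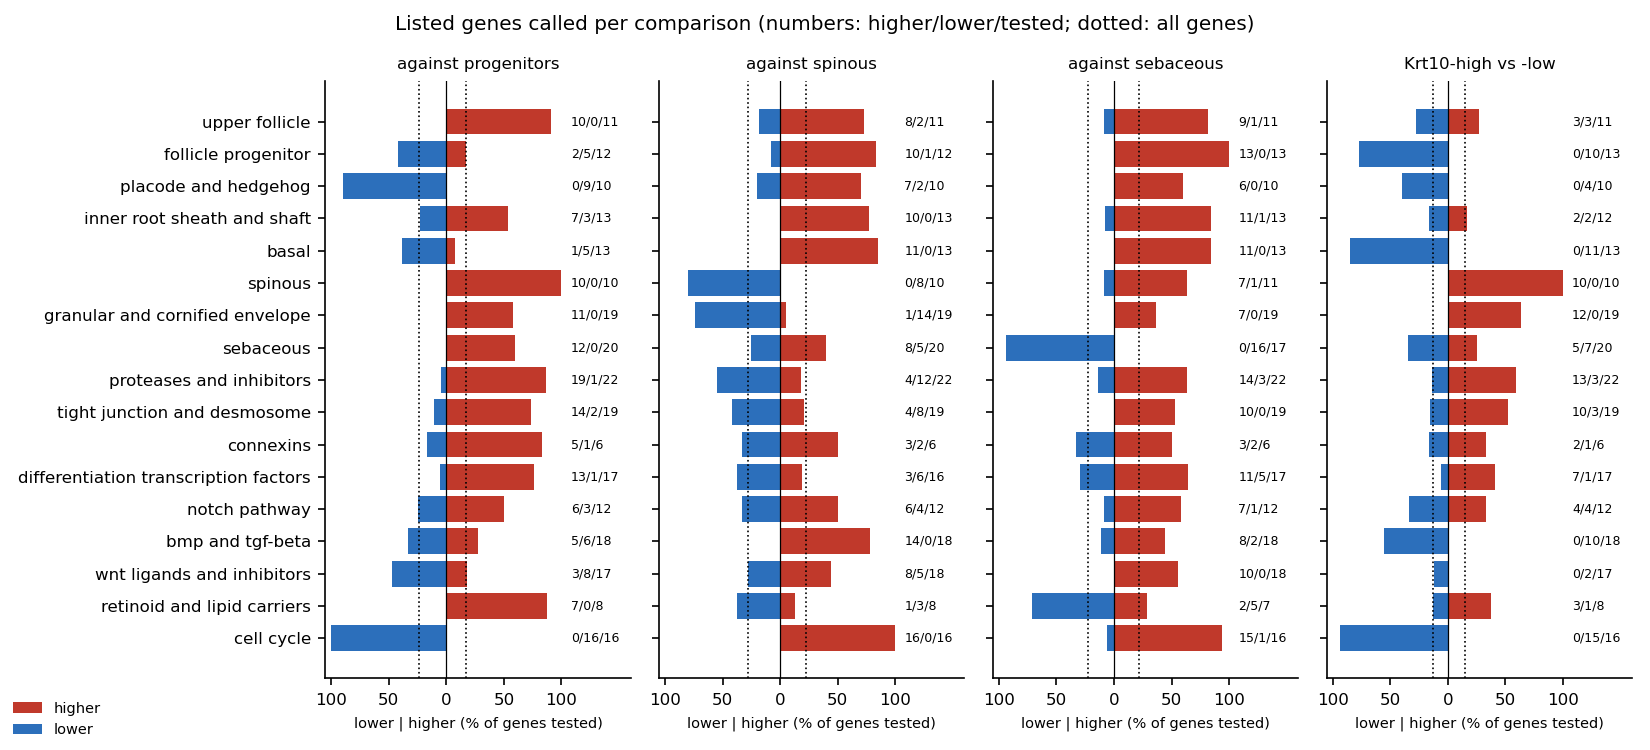
Share of the tested genes of 17 lists (x axis, %) that were higher (red, right) or lower (blue, left) in each of 4 comparisons, with the numbers higher/lower/tested at the right of each bar (genes left out of the counts are left out here too) and dotted lines at the shares over all genes. The cell cycle list is lower against the progenitors (16 of 16) and higher against spinous KCs (16 of 16).

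Against spinous KCs, which contrasts the upper follicle with the differentiated layer of the interfollicular epidermis, the Krt79-positive cells were higher in follicle and basal genes and lower in late differentiation genes. Of 13003 genes tested, 6591 passed (50.7%), with 2920 higher (22.5%) and 3671 lower (28.2%). Of the follicle progenitor list 10 of 12 were higher and 1 lower, with Sox9 at 170.0 and 122 CPM against 11.7 and 8 CPM (3.89 ± 0.25), Nfatc1 at 49.8 and 52.8 CPM against 2.25 and 3.53 CPM and Tbx1 at 18.4 and 19.8 CPM against 0.999 and 0 CPM. Of the basal list 11 of 13 were higher and 0 lower. Itgb1, an integrin of the basement membrane contact, stood at 132 and 146 CPM against 40.7 and 55 CPM (1.54 ± 0.14, adjusted p = 6.57e-06).

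Late genes were lower. Spinous KCs were chosen by at least 1% Krt10, and the counts of spinous and granular genes depend in part on that limit. Of 10 spinous genes 8 were lower and none higher, and of 19 granular genes 14 were lower and 1 higher. Krt1 stood at 2143 and 2810 CPM against 32470 and 34220 CPM (-3.75 ± 0.42), and Ly6d, a surface gene of committed KCs, at 2376 and 2162 CPM against 16950 and 15450 CPM. Krt16, a keratin of stressed epidermis, was lower than in spinous KCs (-2.51 ± 0.38) and higher than in the progenitors (4.37 ± 0.44). Of 22 proteases and inhibitors 4 were higher and 12 lower, and of 16 differentiation factors (Ehf and Elf3 left out) 3 were higher and 6 lower. Klf4 was lower (-1.99 ± 0.11), at 328 and 262 CPM against 1192 and 1149 CPM. Klk7 stood higher than in spinous KCs, at 287 and 179.8 CPM against 113 and 69.1 CPM (1.36 ± 0.33). That call was lost when cells of at least 5% mitochondrial UMIs were left out, with a difference of -0.07 (adjusted p = 0.942).

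The 18 BMP and TGF-beta genes tested held 14 that were higher than in spinous KCs and none that were lower. Tgfb2 stood at 59.8 and 59.2 CPM against 1.25 and 2.12 CPM (5.13 ± 0.21), Tgfb3 at 29.2 and 33.7 CPM against 2 and 1.18 CPM, and Sostdc1 at 553 and 487 CPM against 88.6 and 106 CPM. Among the 8 genes with the highest differences were the transcription factor gene Foxc1 at 108 and 76.5 CPM against 2 and 4 CPM, and the adhesion genes Ncam1 (4.77 ± 0.24) and Alcam (4.63 ± 0.22). Inner root sheath and shaft genes were also higher, 10 of 13 tested, with Krt25 at 34.7 and 98.4 CPM against 13.7 and 9.88 CPM, and 0 were lower.

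Against sebaceous gland cells, which share Krt79, the Krt79-positive cells were lower in 16 of 17 sebaceous genes and higher in most tested follicle progenitor, basal and cell cycle genes. Of 13005 genes tested, 5740 passed (44.1%), with 2799 higher (21.5%) and 2941 lower (22.6%). Of the sebaceous genes 0 were higher. The gland cells were chosen by at least 10 Scd1 UMIs and the Krt79-positive cells held fewer. The counts of sebaceous genes depend in part on that limit. The fatty acid synthase gene Fasn stood at 18.8 and 22 CPM against 592 and 487 CPM (-4.72 ± 0.17), Mgst1 at 172 and 196 CPM against 5126 and 4127 CPM, and Soat1, which esterifies cholesterol, at 6.16 and 6.84 CPM against 868 and 896 CPM. Fabp5 stood at 882 and 1073 CPM against 18040 and 16230 CPM. The fatty acid hydroxylase gene Fa2h stood at 0.525 and 0.352 CPM against 1170 and 862 CPM. It would not have passed the filter on low counts without the gland cells, so its difference is not given. The transcription factor genes Cebpa (-1.43 ± 0.23) and Cebpb (-1.44 ± 0.15) were lower too.

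All 13 tested follicle progenitor genes were higher, with Krt15 at 3254 and 2886 CPM against 435 and 642 CPM (2.51 ± 0.17) and Lhx2, which did not enter this pair of definitions, at 124 and 128 CPM against 30.6 and 49.5 CPM. Of 13 basal genes 11 were higher and 0 lower, although Krt14 did not pass (-0.09 ± 0.20, adjusted p = 0.749). Of 16 cell cycle genes 15 were higher and 1 lower. Notch1 stood at 154 and 160.4 CPM against 60.1 and 62.7 CPM and Hes1 at 81.8 and 76.9 CPM against 22.1 and 22.3 CPM. Cst6 was lower than in sebaceous gland cells, at 343 and 129 CPM against 752 and 802 CPM (-1.72 ± 0.40). Of 7 retinoid and lipid carrier genes (Aldh1a1, Cyp26b1 and Fabp4 left out) 2 were higher and 5 lower.

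Genes that were higher than in each of the 3 groups at once, in both mice, numbered 233, of which 80 stood at 50 CPM or more. Unlike the counts over gene lists, the 233 keep genes that passed the filter on low counts only through the Krt79-positive sums, such as Defb6. The share was 1.95% for higher and 1.65% for lower genes, of 11959 genes tested in all 3 comparisons. Mitochondrial, ribosomal protein, Gm-numbered and Rik genes and second identifiers of a gene symbol were left out of these counts and shares. The 15 with the highest smallest difference were Krt25, Gjb6, Krt75, Gdpd1, Nebl, Gjb2, Krt7, D8Ertd82e, Bbox1, Pvrl3, Gsdma, Klk7, Krt17, Runx1 and Lifr. Keratins, connexins and the transcription factor Runx1, which sustains follicle stem cells, are among them. Gjb6 and Gjb2 encode connexins 30 and 26, which build gap junctions between KCs. Gjb6 stood at 62.4 and 45.7 CPM, against 5.94 and 5.24 CPM in the progenitors, 4.99 and 6.35 CPM in spinous KCs, 14 and 12 CPM in sebaceous gland cells and 1.43 and 1.82 CPM in basal KCs. Gjb2 stood at 181 and 108 CPM, against 23.7 and 26 CPM, 30.5 and 28 CPM, 47.6 and 31.8 CPM and 5.8 and 6.96 CPM in the same order. In both genes the lower of the Krt79-positive values lay above the highest value of any other group.

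Of the other connexin genes, Gja1 (connexin 43) ran the other way and was lower than in all 3 groups, at 119 and 132 CPM against 253 and 216 CPM, 354 and 352 CPM and 257 and 254 CPM, with differences of -0.90 ± 0.10, -1.49 ± 0.10 and -1.02 ± 0.11.

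Krt75 stood at 87.1 and 41.7 CPM, against 2.69 and 3.48 CPM in the progenitors, 1.75 and 8.94 CPM in spinous KCs and 34.1 and 0.413 CPM in sebaceous gland cells, where the mice differed most. It was detected in 8.80% and 7.73% of the Krt79-positive cells, and after thinning to 5000 UMIs in 5.85% and 4.09% of them against 1.13% and 0.816% of melanocytes. Its difference from sebaceous gland cells was 2.00 ± 0.73 (adjusted p = 0.0459) and did not pass under DESeq2 (1.90, adjusted p = 0.316). The next genes are given in the order progenitors, spinous KCs and sebaceous gland cells. Krt7, a keratin of simple and glandular epithelia, stood at 78.5 and 39.5 CPM against 18.9 and 15.1 CPM, 3 and 2.82 CPM and 10 and 6.6 CPM. Runx1 stood at 178 and 121 CPM against 76.1 and 63.9 CPM, 8.74 and 8.23 CPM and 39.1 and 41.7 CPM. Bbox1, the last enzyme of carnitine synthesis, stood at 72.9 and 48.2 CPM against 1.23 and 1.35 CPM, 24.5 and 9.88 CPM and 20.6 and 17.3 CPM, and Gsdma, a gasdermin of the upper skin layers, at 97.8 and 56.4 CPM against 4.62 and 3.37 CPM, 15.7 and 13.6 CPM and 36.6 and 22.7 CPM. Nebl, a nebulin relative that binds actin, stood at 107 and 76.6 CPM against 9.62 and 8.18 CPM, 25.5 and 22.8 CPM and 25.1 and 22.7 CPM.

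Krt25, an inner root sheath keratin, had the highest smallest difference but differed between the mice, at 34.7 and 98.4 CPM against 8.42 and 14.5 CPM, 13.7 and 9.88 CPM and 2 and 4.54 CPM. In cells with 50 or more Krt79 UMIs it stood at 229.6 CPM in KO mouse 2 and 59.3 CPM in KO mouse 1. The inner root sheath gene Tchh was likewise at 22.9 and 77.4 CPM. Over the alternatives run, the 15 genes kept the direction of each difference, except Klk7 against spinous KCs under the limit of 5% mitochondrial UMIs. Under that limit Krt75, Bbox1, Gsdma and Klk7 did not pass against sebaceous gland cells, nor did Krt75 against spinous KCs. Against sebaceous gland cells, Gsdma did not pass under DESeq2 (adjusted p = 0.0747) or after thinning (adjusted p = 0.0709), Krt25 did not after thinning (adjusted p = 0.0631), and Krt75 did not with spinous KCs defined at 2% Krt10 (adjusted p = 0.0518).

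Lower than in all 3 groups were 197 genes, of which 112 stood at 50 CPM or more in each of those groups. The 10 that the rule named were Gja1, Bola3, Mpc1, Acat1, Pgam1, Txn1, Gcsh, Plgrkt, Nudt19 and Pdzd2. After thinning, Pdzd2 did not pass against spinous KCs (adjusted p = 0.157) or sebaceous gland cells (adjusted p = 0.115), and Nudt19 did not pass against sebaceous gland cells with at least 30 Scd1 UMIs (adjusted p = 0.0534). Mpc1, a part of the mitochondrial pyruvate carrier, stood at 66.1 and 73 CPM against 119 and 115 CPM, 135 and 122 CPM and 296 and 199 CPM, and Acat1, an enzyme of ketone and isoleucine breakdown, at 66.2 and 72.5 CPM against 125 and 120.5 CPM, 115 and 116 CPM and 178 and 173 CPM. Txn1, the cytosolic thioredoxin gene, stood at 201 and 219.7 CPM against 332 and 325 CPM, 409.7 and 399 CPM and 437 and 351 CPM. The differences from the progenitors ran from -0.59 for Nudt19 and -0.59 for Plgrkt to -0.90 for Gja1.

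A minority of the Krt79-positive cells also expressed Krt10. At least 0.5% of UMIs came from Krt10 in 53 of the 807 cells of KO mouse 1 (6.57%, 4.96 to 8.50) and in 96 of the 1087 cells of KO mouse 2 (8.83%, 7.21 to 10.7). These Krt10-high cells were deeper, with medians of 19992 and 20594 UMIs against 10974 and 11373 in the Krt10-low cells. Of the cells called as doublets, 3 and 4 were among them, and without doublets the shares were 6.45% and 8.98%. Krt79 stood at 4500 and 4349 CPM in the Krt10-high and 6859 and 3814 CPM in the Krt10-low cells. Among the cells with at least 12 Krt79 UMIs, 8.37% and 12.4% were Krt10-high.

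Against the Krt10-low cells, the Krt10-high cells were higher in spinous, granular and protease genes and lower in follicle, basal and cell cycle genes. Krt10 chose both groups, so the counts over gene lists depend in part on the split. Of 12499 genes tested, 3553 passed (28.4%), with 1895 higher (15.2%) and 1658 lower (13.3%). With every cell thinned to 5000 UMIs, 756 were higher and 695 lower, and without the filter on low counts 1743 were higher and 2112 lower. All 10 spinous genes were higher, with Krt1 at 18210 and 19430 CPM against 515 and 696 CPM (4.96 ± 0.42) and Dsc1 at 235 and 189 CPM against 32.8 and 25.2 CPM. Of 19 granular genes 12 were higher and none lower, with the corneocyte caspase gene Casp14 at 108 and 105 CPM against 4.44 and 5.98 CPM. Of 22 proteases and inhibitors 13 were higher and 3 lower, with Klk7 at 836 and 595 CPM against 233 and 128 CPM (1.98 ± 0.34) and Klk8 at 291 and 226 CPM against 36.2 and 24.7 CPM. Klf4 stood at 1192 and 983 CPM against 242 and 173 CPM and Notch3 at 28.4 and 34.6 CPM against 10.5 and 8.96 CPM.

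The follicle progenitor list had 10 of 13 genes lower and 0 higher, with Sox9 at 55.5 and 46.6 CPM against 183 and 133 CPM (-1.65 ± 0.21) and Nfatc1 at 12.8 and 12 CPM against 54 and 58.7 CPM. The basal list had 11 of 13 lower and 0 higher, and the cell cycle list 15 of 16 lower and 0 higher. Of 18 BMP and TGF-beta genes 10 were lower and 0 higher, with Tgfb2 at 12.1 and 7.99 CPM against 65.2 and 66.7 CPM (-2.77 ± 0.20) and Fst at 78.9 and 46.2 CPM against 310.4 and 286 CPM. Apoe was lower (-2.71 ± 0.14), and Krt75 stood at 2.13 and 10.2 CPM against 96.5 and 46.4 CPM.

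Krt17 and Gata6 did not pass between the Krt10-high and Krt10-low cells. Krt17 stood at 3556 and 2410 CPM against 5381 and 3425 CPM (-0.56 ± 0.26, adjusted p = 0.127), and Gata6 at 18.5 and 10.7 CPM against 41.6 and 21.8 CPM (-1.18 ± 0.45, adjusted p = 0.0683). With the mouse number as a block both were lower (adjusted p = 0.0399 and 0.00298). Of the genes that were higher than in all 3 groups, Nebl stood at 92.4 and 92.4 CPM against 109 and 75.6 CPM (0.00 ± 0.16), and Gsdma at 101 and 97.2 CPM against 98.2 and 51.9 CPM (0.40 ± 0.32). Of 11 genes of the upper follicle list (Defb6 left out), 3 were higher (Aqp3, Ly6d and Alox12e) and 3 lower (Fst, Lrig1 and Klk10). Spinous KCs outside the Krt79-positive group had 1 Gata6 UMI in all and Krt17 at 329 and 436 CPM.

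**Figure D5:**
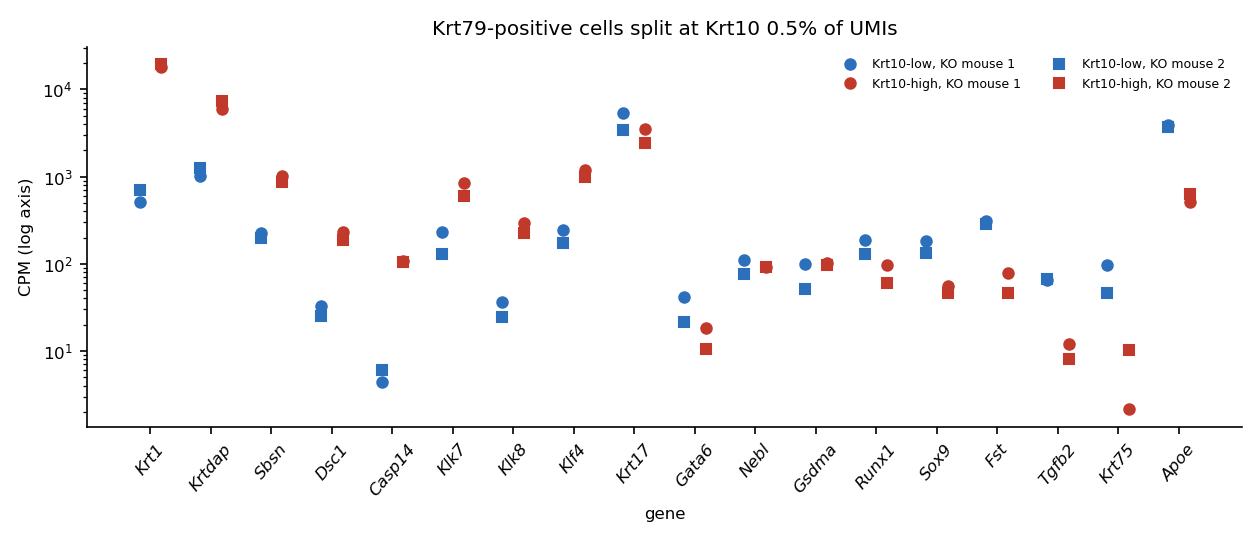
Levels of 18 genes (y axis, CPM with TMM scaling, log axis) in the Krt10-high (red) and Krt10-low (blue) Krt79-positive cells, with circles for KO mouse 1 and squares for KO mouse 2. The red points of Krt1, Krtdap, Casp14 and Klk8 lie above the blue ones in both mice, and those of Fst, Tgfb2 and Apoe lie below them.

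Markers of other cell types were counted as well. Of the 7 melanocyte genes, 0 passed edgeR's test against the progenitors, 0 had an unadjusted p under 0.05 and 0 passed under DESeq2. The list summed to 55.1 and 153.5 CPM in the Krt79-positive cells and to 81.3 and 122 CPM in the progenitors, and its most abundant gene Dct stood at 23.1 and 66.6 CPM and 35.9 and 54.6 CPM. The 9 tested myeloid and Langerhans genes belong to a list that summed to 96.6 and 69.8 CPM in the Krt79-positive cells and 39.4 and 41.3 CPM in the progenitors. Of them 2 were higher than in the progenitors, the complement genes C1qb (17.5 and 11 CPM against 3.89 and 4.91 CPM) and C1qc, and neither passed among cells with at least 12 Krt79 UMIs (adjusted p = 0.825 for C1qb). C1qa, C1qb and C1qc were also higher than in sebaceous gland cells and lower in the Krt10-high cells, and their part in the results was not tested. The Langerhans cell gene Cd207 had 0 UMIs in the Krt79-positive cells of both mice. The T cell list summed to 0.393 and 3.07 CPM, the Merkel cell list to 2.16 and 0.101 CPM, the dermal list to 7.61 and 7.59 CPM and the endothelial list to 0.262 and 0.453 CPM. Of the 5 dermal genes tested, Col1a1, Lum and Rspo3 were left out, and of the other 2, 0 were higher and 1 lower than in the progenitors. Of the 11 host defence genes tested, Ccl20, Defb6, Il18 and S100a8 were left out, and of the other 7, 2 were higher than in the progenitors, including Defb1 at 23.5 and 20.6 CPM against 2.08 and 3.06 CPM. Of 16 immediate early and heat shock genes 5 were higher than in the progenitors and 0 lower, and against spinous KCs 1 was higher and 8 lower. Fos stood at 334 and 222 CPM against 216 and 99.5 CPM and did not pass (0.82 ± 0.34, adjusted p = 0.0755), and with the mouse number as a block it was higher (adjusted p = 0.000288). These genes respond to cell handling, whose part in these levels was not tested.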

How the data were processed

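Epidermal single-cell RNA-seq libraries, 1 from each of 2 KO mice, were analysed from the UMI count matrices that the authors deposited. Per the labels, these were made with Cell Ranger 3.0.2 on the mm10 genome, and the values are whole-number counts per gene and cell, not normalized. The 2 matrices held 26683 barcodes, of which 19488 passed the limits on genes and mitochondrial UMIs. The study's own cell annotation was not used here, and cell groups were set by UMI limits on named genes.

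UMIs were summed per mouse and cell group, so that n is 2 mice. Sums were scaled by TMM and tested with edgeR 4.0.16 (quasi-likelihood test, Benjamini-Hochberg adjustment over all genes, threshold 0.05), in 1 fit over 5 groups for the first 3 comparisons and in a second fit with the Krt79-positive cells split by Krt10. The fits held 13009 and 12504 genes that passed edgeR's filter on low counts, with 5 and 6 residual degrees of freedom. DESeq2 1.42.0 was an alternative. Cells called as doublets by Scrublet in scanpy 1.11.5, at an expected rate of 8%, were kept and left out as an alternative. The fit was tested on simulated data.

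Same-numbered sums came from the same mouse, which pairs them. Their deviations from the group means correlated at 0.0268 to 0.306 over pairs of groups in the first fit. The members and gene lists were chosen with earlier results of these data known. Genes of 28 lists could be named, besides the 15 highest and 10 lowest genes against all 3 groups and the 8 highest and 8 lowest per comparison, at 50 CPM or more. Promoters are from RefSeq, and 4 of 4 genes asked for matched.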

Additional observations from a re-analysis of the deposited data

Results flagged for a closer look

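Barcodes outside the cell filter also held Krt79. Of the 3209 barcodes removed in KO mouse 1, 82 held at least 12 Krt79 UMIs (2.56%), and of the 3986 removed in KO mouse 2, 107 did (2.68%), where a count of 0 would allow up to 0.0935% and 0.0753%. These barcodes entered no comparison. Among them 67 and 83 had 10% or more mitochondrial UMIs, 18 and 31 had under 900 genes, and 10 and 17 had over 7700 genes.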

How the results depend on the processing

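The mouse number as a replicate block gave 6677 called genes against the progenitors and 7224 against spinous KCs, in place of 5352 and 6591. It gave 6232 against sebaceous gland cells and 4160 between Krt10-high and Krt10-low cells, in place of 5740 and 3553. Apart from the 6 calls it added, the block changed no call of the 69 gene values tested, which include that of Fa2h. Thinning to 5000 UMIs gave 4002 called genes against spinous KCs, 2950 against sebaceous gland cells and 1451 for the Krt10 split, and a mitochondrial share under 5% gave 4126, 2852 and 2319; both leave fewer UMIs and genes tested. Without the filter on low counts, higher genes made up 55.9% of the calls against spinous KCs in place of 44.3%, and 58.9% in place of 48.8% against sebaceous gland cells. For the Krt10 split it turned the larger side, with 1743 higher and 2112 lower genes in place of 1895 and 1658, as did a mitochondrial share under 5%, with 1124 higher and 1195 lower. Against sebaceous gland cells higher genes were also the larger side with doublets left out (50.7%), after thinning (50.2%) and with the gland at 30 or more Scd1 UMIs (50.8%). The share of Krt79-positive cells, 9.88% as the mean of both mice, was 15.9% at 2 or more Krt79 UMIs, 7.08% at 5 or more, 5.14% at 12 or more, 14.2% under 5% mitochondrial UMIs and 7.76% after thinning. The Krt10-high share, 7.70%, was 10.37% at 12 or more Krt79 UMIs, 5.51% under 5% mitochondrial UMIs, 10.2% with the split at 0.25% and 5.30% with the split at 1%. Under 5% mitochondrial UMIs the mice moved unequally. The share of Krt79-positive cells was then 16.9% in KO mouse 1 and 11.6% in KO mouse 2, and the Krt10-high share 3.62% and 7.40%. Leaving out 1 mouse at a time gave shares of 9.15% to 10.6% and Krt10-high shares of 6.57% to 8.83%. The counts of called genes have no such values, since 1 mouse leaves no residual degrees of freedom. Fst against the progenitors went to -0.0801 at 12 or more Krt79 UMIs, and Klk7 against spinous KCs to -0.075 under 5% mitochondrial UMIs; the cause was not tested. Of 897 alternative values of single genes, 861 counted as unchanged. For the 57 of the 69 gene values that were called, this means the same direction and, where a test could be run, the same call. A gene value not called at first counted as unchanged if it stayed uncalled, and also if its direction changed. The values with 1 mouse left out, 69 for each mouse, have no p-value and can be compared by direction only. The limit of 12 UMIs and the Krt10-low subset were chosen after seeing the data. Depth limits genes under about 1 CPM, and 2 mice limit every p-value.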
